A study of Mus musculus with 18 samples.

Results

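The chemokine ligands and inflammatory cytokines comprised every gene on the arrays whose symbol is Ccl, Cxcl or Cx3cl followed by a number, together with Il6, Il1a, Il1b, Il33, Tnf, Lif, Csf1 and Csf2. They were 40 of 18193 genes, namely 18 Ccl ligands, 13 Cxcl ligands, Cx3cl1 and 8 cytokines, and where a gene had several probe sets the one with the highest mean on the 18 arrays was used. The rule used symbols and that mean only, not any difference between samples. Of the 40 genes, 24 were above a filter that left out the 40% of genes with the lowest mean, and these 24 were tested. The other 16 members, described after the tested ones, were Ccl1, Ccl3, Ccl6, Ccl11, Ccl12, Ccl17, Ccl22, Cxcl3, Cxcl5, Cxcl9, Cxcl11, Cxcl13, Cxcl14, Il1a, Il1b and Tnf.

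Side population (SP) cells are cells that pump out the dye Hoechst and are sorted by flow cytometry from the dye-retaining remainder, here called nonSP. The samples were total RNA of SP and nonSP cells of the mouse lung carcinoma lines A2C12, betaD5 and cRAF_cMYC, with 3 replicates of each fraction in each line and no treatment. All 3 lines came from lung tumours of 8-month-old mice transgenic for both c-myc and c-raf, had transformed spontaneously and were grown in the same serum-containing medium. The labels name neither the promoter of the transgenes nor whether a line is 1 clone, and they do not say whether replicates were separate cultures or sorts, so the p-values measure the spread between these samples, which may be technical.

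Chemokines are small secreted proteins that attract leukocytes through G protein-coupled receptors. The CC ligands act mainly on monocytes, lymphocytes and eosinophils, while the CXC ligands with a Glu-Leu-Arg motif, which in the mouse include Cxcl1, Cxcl2, Cxcl5 and Cxcl15, attract neutrophils. Many of their genes lie in clusters, and many are induced by NF-kappaB, a transcription factor activated by interleukin-1, Tnf and danger signals. Tumour cells and stromal cells both secrete them.

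Signals are log2 values as deposited, and a difference of 1 is a 2-fold change. Array medians lay between 5.8 and 6.06 for A2C12, between 6.48 and 6.72 for betaD5 and between 6 and 6.53 for cRAF_cMYC, and comparisons of lines therefore carry a shift of all genes. Both betaD5 arrays numbered 1 resembled cRAF_cMYC arrays more than their own line (r = 0.982 against 0.925 for the nonSP array), and both cRAF_cMYC arrays numbered 3 resembled betaD5 (0.988 against 0.929). By a smaller margin, cRAF_cMYC arrays 1 and 2 also had their highest r with a betaD5 array (0.982 against 0.971 for SP 1). The same held for betaD5 SP 3 and nonSP 2 with a cRAF_cMYC array. Lines are named as labelled throughout. The counts of calls between lines are given with and without the 4 arrays of betaD5 1 and cRAF_cMYC 3, called below the 4 arrays that resembled another line. The cells were also checked against markers. The fibroblast and stromal list was high on every array (mean 9.86 to 12.09 in SP and 9.94 to 12.21 in nonSP arrays, 12 of 13 genes above the filter). Epithelial markers averaged 6.33 to 7.09 in SP and 6.33 to 7.15 in nonSP arrays with 5 of 13 above the filter, Epcam (7.94 to 9.98) and Krt19 (9.58 to 12.42) among them, while Cdh1, Sftpc and Nkx2-1 were below it. The leukocyte list averaged 5.97 to 6.95 in SP and 5.99 to 7.09 in nonSP arrays with 7 of 13 above the filter, of which Cd14 (8.46 to 11.16) and Csf1r (7.23 to 11.01) were the highest, while Ptprc, which defines leukocytes, lay between 3.15 and 4.72. Endothelial markers averaged 4.75 to 5.51 in SP and 4.72 to 5.74 in nonSP arrays. In bulk RNA, fewer cells of a type and less RNA per cell cannot be told apart.

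Promoter sequences from RefSeq (build GRCm38.p6, 250 bases before to 50 after a start) were matched by symbol to 30 of the 40 members, which had 34 starts. The unmatched members were Ccl2, Ccl4, Ccl5, Ccl7, Ccl11, Ccl24, Cxcl5, Cxcl11, Cxcl16 and Cxcl17. The letters GGGNNTTTC, a form of the site bound by NF-kappaB, were searched on both strands and were present in the windows of 8 of the 30 members (Ccl9, Ccl20, Csf1, Cxcl1, Cxcl2, Cxcl3, Cxcl9 and Il6), and in 4.36% of all 32851 windows. The promoters of 5 members the results turn on, chosen after their values were seen, are printed: Il6, Cxcl1, Cxcl2 and Ccl20 because their differences shared signs in 4 of the SP and nonSP pairs, and Cxcl15, the neighbour of Cxcl1 on the chromosome, because of its large difference between lines. Each shows the 150 bases before the start on the plus strand, 5′ to 3′, with matches to GGGNNTTTC on either strand in capitals, and in Cxcl15 also the letters TATAAA, which were in 13.6% of all windows. A match is a description of letters and not a shown site.
Il6: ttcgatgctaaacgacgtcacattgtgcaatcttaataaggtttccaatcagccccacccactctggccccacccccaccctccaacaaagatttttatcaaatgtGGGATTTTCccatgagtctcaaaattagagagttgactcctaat
Cxcl1: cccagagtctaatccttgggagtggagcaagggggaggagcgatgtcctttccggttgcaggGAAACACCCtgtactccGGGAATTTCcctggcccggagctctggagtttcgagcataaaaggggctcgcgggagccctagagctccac
Cxcl2: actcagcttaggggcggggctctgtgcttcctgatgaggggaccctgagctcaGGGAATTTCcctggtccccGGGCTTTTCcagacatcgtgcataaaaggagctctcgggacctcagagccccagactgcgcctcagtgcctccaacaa
Ccl20: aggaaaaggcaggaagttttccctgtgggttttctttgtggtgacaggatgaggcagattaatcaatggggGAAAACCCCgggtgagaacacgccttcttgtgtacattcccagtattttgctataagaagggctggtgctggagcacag
Cxcl15: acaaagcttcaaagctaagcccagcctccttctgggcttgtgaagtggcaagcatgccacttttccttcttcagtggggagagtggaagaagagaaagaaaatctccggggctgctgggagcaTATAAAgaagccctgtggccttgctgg
These stretches are chr5:30012964-30013113 for Il6, chr5:90891095-90891244 for Cxcl1, chr5:90903749-90903898 for Cxcl2, chr1:83116616-83116765 for Ccl20 and chr5:90794384-90794533 for Cxcl15. The matches began 44 bases before the start in Il6, 88 and 71 bases before it in Cxcl1, 97 and 78 in Cxcl2, and 79 in Ccl20, so Cxcl1 and Cxcl2 each carried a pair of matches. The Cxcl15 window held no match to GGGNNTTTC, from which nothing follows about any factor.

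The first comparison asked which members differed between lines. Among nonSP arrays, A2C12 was set against the mean of the other lines. Il33, Cxcl15, Il6 and Ccl9 were higher in A2C12 and Csf1, Ccl4 and Ccl25 were lower, as deposited and after centring alike. As deposited, 11 of 24 members were called at an adjusted p under 0.05, of which 4 were higher in A2C12 and 7 lower, beside 2.96% of all 10916 tested genes called higher and 49.2% called lower. The median of all genes was -0.58, and whether this shift lies in the RNA or in the scaling of the arrays was not tested. After each array was centred on its median, 8 members were called, 5 higher (Il33, Cxcl15, Il6, Ccl9 and Ccl28) and 3 lower (Csf1, Ccl4 and Ccl25), beside 12% of all genes called higher and 16.4% called lower. The higher calls were 1307 genes and the lower calls 1788 genes with centring, against 323 and 5374 as deposited. The median difference over the 24 members was -0.60 as deposited and -0.06 with centring, close to the medians over all genes (-0.58 and -0.04). Without the 4 arrays that resembled another line, 14 members were called as deposited, 4 higher and 10 lower, beside 4.1% of all genes called higher and 45.9% called lower. These were the same 11 with Ccl5 (-1.54, limma adjusted p = 0.000108), Ccl8 (-0.87, adjusted p = 0.00644) and Ccl20 (-1.59, adjusted p = 0.0298) added. The 4 arrays were picked by their expression values, which by itself can narrow the spread within these lines. The counts and calls without them, here and below, are therefore a description and no test. Ccl5 also passed the filter only through the arrays on which it was high. The 2 other lines were not alike in Ccl5, Ccl8 and Ccl20. A2C12 differed from betaD5 and cRAF_cMYC by -0.36 and -2.72 in Ccl5, by 0.14 and -1.88 in Ccl8, and by -2.57 and -0.62 in Ccl20. With centring as well, a setting added after the values had been seen, 10 members were called, 6 higher and 4 lower, beside 18.5% and 17.8% of all genes. Ccl27a (0.88, limma adjusted p = 0.0076) was then added among the higher and Ccl5 (-0.99, adjusted p = 0.00125) and Cxcl17 (-0.73, adjusted p = 0.0406) among the lower, and Ccl25 was lost. In that fit A2C12 differed from betaD5 and cRAF_cMYC by 1.40 and 0.35 in Ccl27a, by 0.40 and -2.37 in Ccl5, and by -1.27 and -0.18 in Cxcl17. Ccl8, not called there against the mean, went both ways (0.90 and -1.53). Members went both ways, and the plot of the line differences shows their centred values.

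**Figure D1:**
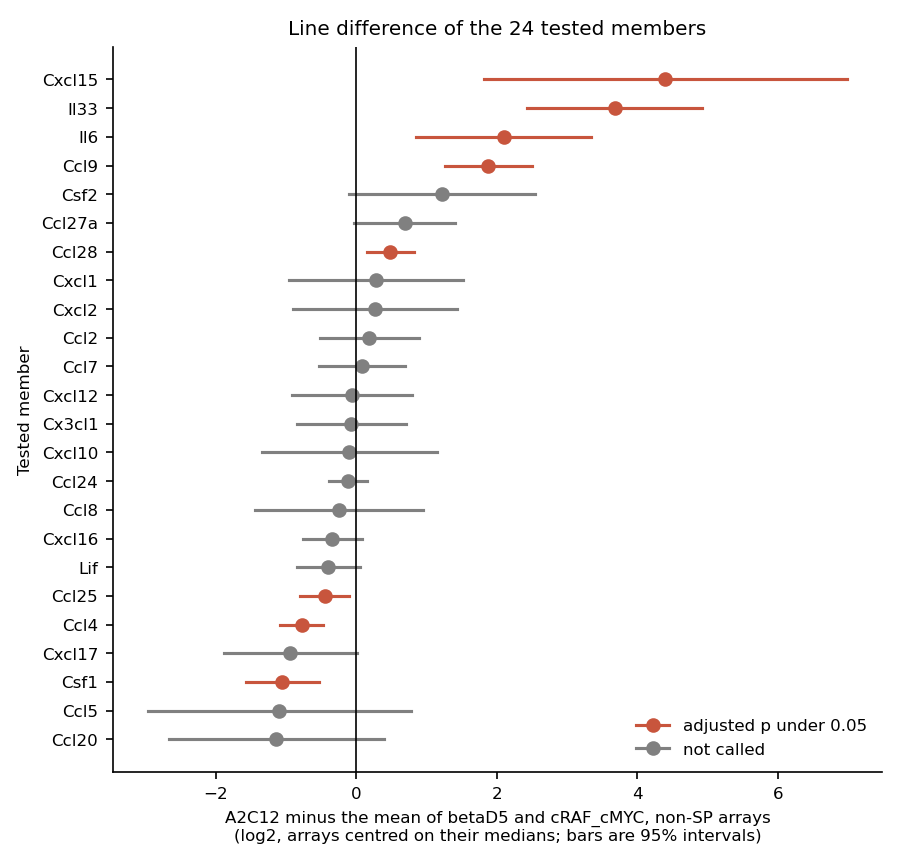
Difference between A2C12 and the mean of betaD5 and cRAF_cMYC among nonSP arrays for the 24 tested members (x axis, log2, arrays centred on their medians; points are the fitted differences and bars 95% intervals, with called members in red). Cxcl15, Il33, Il6, Ccl9 and Ccl28 lay above 0 and Csf1, Ccl4 and Ccl25 below it.

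Il33 is a cytokine of the interleukin-1 family that is kept in the nucleus and released by damaged cells as an alarm signal. Replicates are given in the order 1, 2 and 3, here and for every member. In A2C12, Il33 read 13.06, 12.77 and 13.25 in SP arrays, against 13.03, 13.03 and 13.31 in nonSP arrays. In betaD5, Il33 read 9.48, 8.86 and 10.85 in SP arrays, against 9.43, 11.49 and 8.64 in nonSP arrays. In cRAF_cMYC, Il33 read 8.07, 9.23 and 10.23 in SP arrays, against 8.77, 10.43 and 11.11 in nonSP arrays. All 6 A2C12 arrays lay above all 12 others. The A2C12 values varied little, while within betaD5 the highest array was nonSP 2 and the lowest nonSP 3. Among nonSP arrays Il33 averaged 13.12 ± 0.16 in A2C12, against 9.85 ± 1.47 in betaD5 and 10.10 ± 1.21 in cRAF_cMYC (SD, n = 3 each). The limma difference from the mean of the other lines was 3.14 (SE 0.60, adjusted p = 0.000552), and with centring 3.68 (SE 0.59, adjusted p = 0.000272). Without the 4 arrays that resembled another line it was 3.29.

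Cxcl15, known in the mouse as lungkine, is a neutrophil-attracting CXC ligand described in lung epithelium. In A2C12, Cxcl15 read 10.11, 10.49 and 8.85 in SP arrays, against 9.90, 10.88 and 9.29 in nonSP arrays. In betaD5, Cxcl15 read 4.17, 6.26 and 8.04 in SP arrays, against 4.20, 8.59 and 6.20 in nonSP arrays. In cRAF_cMYC, Cxcl15 read 4.08, 4.22 and 8.49 in SP arrays, against 4.15, 4.55 and 9.26 in nonSP arrays. The other lines each held arrays near 4 beside arrays above 6. The lowest were the arrays betaD5 1, cRAF_cMYC 1 and cRAF_cMYC 2 in both fractions, and the A2C12 arrays overlapped only cRAF_cMYC nonSP 3, which reached 9.26. Cxcl15 passed the filter only through A2C12, since its means in the groups of the other lines were 5.59 to 6.33, below the smallest mean kept (6.53). Its call is therefore not independent of the filter. The difference was 3.86 (SE 1.19, limma adjusted p = 0.0132), and 4.40 with centring (SE 1.22, adjusted p = 0.0138). The call was lost without A2C12 nonSP 2 (3.44, adjusted p = 0.0589). Without the 4 arrays that resembled another line the difference was 4.15 (SE 0.53). Those arrays, cRAF_cMYC nonSP 3 among them, were picked by their expression values, which by itself can narrow the spread. That fit is therefore a description and no stronger call. A second, dimmer probe set of Cxcl15 gave a centred difference of 2.05.

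Cxcl5 is the member with the widest range over the arrays, 9.10 log2 units, and its mean over all arrays nonetheless left it below the filter, so it was not tested. It is a neutrophil-attracting ligand known in the mouse as LIX. In A2C12, Cxcl5 read 3.65, 4.66 and 3.28 in SP arrays, against 3.98, 4.54 and 4.27 in nonSP arrays. In betaD5, Cxcl5 read 12.12, 4.14 and 3.84 in SP arrays, against 11.91, 3.97 and 3.95 in nonSP arrays. In cRAF_cMYC, Cxcl5 read 9.54, 11.79 and 3.64 in SP arrays, against 10.16, 12.37 and 3.58 in nonSP arrays. The 6 arrays of betaD5 1, cRAF_cMYC 1 and cRAF_cMYC 2 lay at 9.54 or more, and the other 12 arrays at 4.66 or less. These were the same 6 arrays on which Cxcl15 was lowest. RefSeq's gene order on chromosome 5 is Cxcl5, Ppbp, Pf4, Cxcl3, Cxcl15, Cxcl1 and Cxcl2, so both genes lie in 1 cluster of 7 genes. The ligand between them that is a member, Cxcl3, stayed between 2.69 and 4.02 on all 18 arrays. Cxcl1 and Cxcl2 did not follow either pattern, as described with the fractions below.

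Il6 is an inflammatory cytokine that signals through Il6ra and Il6st to STAT3. In A2C12, Il6 read 8.78, 11.05 and 8.76 in SP arrays, against 10.46, 10.0 and 8.51 in nonSP arrays. In betaD5, Il6 read 8.92, 6.76 and 8.24 in SP arrays, against 9.15, 8.49 and 7.16 in nonSP arrays. In cRAF_cMYC, Il6 read 7.22, 7.99 and 7.76 in SP arrays, against 7.33, 8.81 and 7.65 in nonSP arrays. The highest array was A2C12 SP 2 and the lowest betaD5 SP 2, and the lines overlapped. Il6 averaged 9.66 ± 1.02 in A2C12 nonSP arrays, against 8.27 ± 1.01 in betaD5 and 7.93 ± 0.78 in cRAF_cMYC (SD, n = 3 each). The difference of 1.56 (SE 0.59) was called with limma's adjusted p = 0.0369, but not without A2C12 nonSP 1 or 2, betaD5 nonSP 3, or cRAF_cMYC nonSP 1 or 3 (1.16 to 1.49, adjusted p = 0.0588 to 0.175). With centring it was 2.10 (SE 0.59, adjusted p = 0.0147).

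Ccl9, a CC ligand of mouse macrophages and myeloid cells that acts through Ccr1, was the only other member called higher both ways. In A2C12, Ccl9 read 8.0, 8.78 and 8.20 in SP arrays, against 9.22, 8.52 and 8.32 in nonSP arrays. In betaD5, Ccl9 read 7.66, 7.78 and 7.71 in SP arrays, against 7.71, 7.65 and 8.01 in nonSP arrays. In cRAF_cMYC, Ccl9 read 6.51, 6.65 and 7.74 in SP arrays, against 6.28, 6.70 and 7.70 in nonSP arrays. A2C12 SP 1, at 8.0, was the only A2C12 array that did not exceed every array of the other lines. The arrays labelled cRAF_cMYC 1 and 2 were the lowest, and cRAF_cMYC 3 lay with betaD5. The difference was 1.34 (SE 0.32, limma adjusted p = 0.00261), and 1.88 with centring (SE 0.29, adjusted p = 0.000224). A second probe set gave 2.41 with centring.

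Ccl28, a ligand of mucosal tissues that acts through Ccr10, was called with centring and not as deposited. In A2C12, Ccl28 read 6.42, 6.78 and 6.39 in SP arrays, against 6.30, 6.84 and 6.59 in nonSP arrays. In betaD5, Ccl28 read 6.74, 6.78 and 6.86 in SP arrays, against 6.68, 7.04 and 6.76 in nonSP arrays. In cRAF_cMYC, Ccl28 read 5.77, 6.79 and 6.58 in SP arrays, against 5.90, 6.84 and 6.57 in nonSP arrays. Only cRAF_cMYC 1 stood apart, below 6 in both fractions. As deposited the difference was -0.05 (SE 0.24, limma adjusted p = 0.867), and with centring it was 0.49 (SE 0.16, adjusted p = 0.031). Its 2 dimmer probe sets gave 0.10 and 0.13 with centring. In all, 5 members turned from below 0 as deposited to above 0 with centring, and of these Ccl2, Ccl7, Cxcl1 and Cxcl2 were called neither way.

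Csf1, the growth factor of macrophages, had the largest decrease among the called members. In A2C12, Csf1 read 10.10, 11.05 and 9.78 in SP arrays, against 10.57, 10.41 and 9.69 in nonSP arrays. In betaD5, Csf1 read 12.28, 11.71 and 11.83 in SP arrays, against 12.24, 11.83 and 11.84 in nonSP arrays. In cRAF_cMYC, Csf1 read 11.38, 12.48 and 11.67 in SP arrays, against 11.36, 11.99 and 11.60 in nonSP arrays. Every A2C12 array lay below every array of the other lines. Csf1 averaged 10.22 ± 0.47 in A2C12 nonSP arrays, against 11.97 ± 0.24 in betaD5 and 11.65 ± 0.32 in cRAF_cMYC (SD, n = 3 each). The limma difference was -1.59 (SE 0.29, adjusted p = 0.000433), and -1.05 with centring (SE 0.24, adjusted p = 0.00472). Its other probe sets gave -0.39, -0.63 and 0.04 with centring, so they disagreed on the size and 1 of them on the direction.

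Ccl4, which attracts monocytes and T cells, was also lower in A2C12. In A2C12, Ccl4 read 6.28, 6.30 and 6.01 in SP arrays, against 6.20, 6.31 and 5.95 in nonSP arrays. In betaD5, Ccl4 read 7.15, 7.37 and 7.76 in SP arrays, against 7.13, 7.83 and 7.93 in nonSP arrays. In cRAF_cMYC, Ccl4 read 6.93, 7.60 and 7.40 in SP arrays, against 6.89, 7.52 and 7.48 in nonSP arrays. The A2C12 arrays spanned 5.95 to 6.31 and all others were higher. These A2C12 values lay near the medians of their arrays (5.8 to 6.06) and below the smallest mean kept by the filter (6.53). Ccl4 thus passed the filter through the other lines, and its call is not independent of the filter. The difference was -1.31 (SE 0.23, limma adjusted p = 0.000271), and -0.78 with centring (SE 0.15, adjusted p = 0.000986). Ccl25 is a ligand of Ccr9 known for homing of T cells to the thymus and gut. In A2C12, Ccl25 read 7.13, 7.69 and 7.40 in SP arrays, against 7.02, 7.48 and 7.53 in nonSP arrays. In betaD5, Ccl25 read 8.36, 8.66 and 8.53 in SP arrays, against 8.59, 8.53 and 8.58 in nonSP arrays. In cRAF_cMYC, Ccl25 read 7.77, 8.26 and 8.45 in SP arrays, against 7.69, 8.45 and 8.16 in nonSP arrays. A2C12 SP 2 reached 7.69, the level of the lowest cRAF_cMYC array, and the remaining A2C12 arrays lay below all others. The difference of -0.99 (SE 0.21) had a limma adjusted p = 0.00135, and with centring it was -0.45 (SE 0.16, adjusted p = 0.0483), a call that was lost without the 4 arrays that resembled another line (-0.41, adjusted p = 0.08).

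Cxcl16, Lif, Cxcl17 and Ccl24 were called lower in A2C12 as deposited and not with centring of all arrays. Cxcl16 is a transmembrane ligand of Cxcr6. In A2C12, Cxcl16 read 7.55, 7.99 and 7.71 in SP arrays, against 7.78, 7.96 and 7.73 in nonSP arrays. In betaD5, Cxcl16 read 9.24, 8.53 and 8.52 in SP arrays, against 9.03, 8.87 and 8.48 in nonSP arrays. In cRAF_cMYC, Cxcl16 read 8.37, 8.78 and 8.48 in SP arrays, against 8.45, 8.85 and 8.52 in nonSP arrays. All A2C12 arrays were below all others as deposited, and the difference was -0.88 (limma adjusted p = 0.00254), against -0.34 with centring (adjusted p = 0.21). Lif is a cytokine of the interleukin-6 family that acts through Lifr and Il6st. In A2C12, Lif read 9.06, 9.63 and 9.29 in SP arrays, against 9.22, 9.91 and 9.52 in nonSP arrays. In betaD5, Lif read 10.13, 10.49 and 10.70 in SP arrays, against 10.73, 10.58 and 10.87 in nonSP arrays. In cRAF_cMYC, Lif read 9.86, 9.98 and 10.74 in SP arrays, against 9.74, 10.36 and 10.67 in nonSP arrays. Its highest A2C12 array, nonSP 2 at 9.91, was above the cRAF_cMYC 1 arrays, and the difference was -0.94 (limma adjusted p = 0.00548), against -0.40 with centring (adjusted p = 0.172).

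Cxcl17 is a ligand of mucosal tissues, the lung among them. In A2C12, Cxcl17 read 7.32, 7.31 and 6.73 in SP arrays, against 7.66, 7.21 and 6.70 in nonSP arrays. In betaD5, Cxcl17 read 8.12, 8.70 and 9.32 in SP arrays, against 8.40, 9.69 and 8.74 in nonSP arrays. In cRAF_cMYC, Cxcl17 read 7.70, 7.83 and 9.38 in SP arrays, against 7.72, 7.72 and 9.69 in nonSP arrays. All A2C12 arrays were below all others, and cRAF_cMYC 3 lay with the highest betaD5 arrays. The difference was -1.47 (SE 0.46, limma adjusted p = 0.014), against -0.93 with centring (adjusted p = 0.131) and -0.73 with centring and without the 4 arrays (adjusted p = 0.0406). Ccl24, or eotaxin-2, attracts eosinophils through Ccr3. In A2C12, Ccl24 read 6.68, 7.08 and 6.57 in SP arrays, against 6.78, 6.73 and 6.31 in nonSP arrays. In betaD5, Ccl24 read 7.28, 7.14 and 7.29 in SP arrays, against 7.47, 7.56 and 7.37 in nonSP arrays. In cRAF_cMYC, Ccl24 read 6.63, 7.31 and 7.26 in SP arrays, against 6.77, 7.20 and 7.22 in nonSP arrays. The lines overlapped, and its difference of -0.65 (limma adjusted p = 0.0125) was -0.12 with centring (adjusted p = 0.541).

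**Figure D2:**
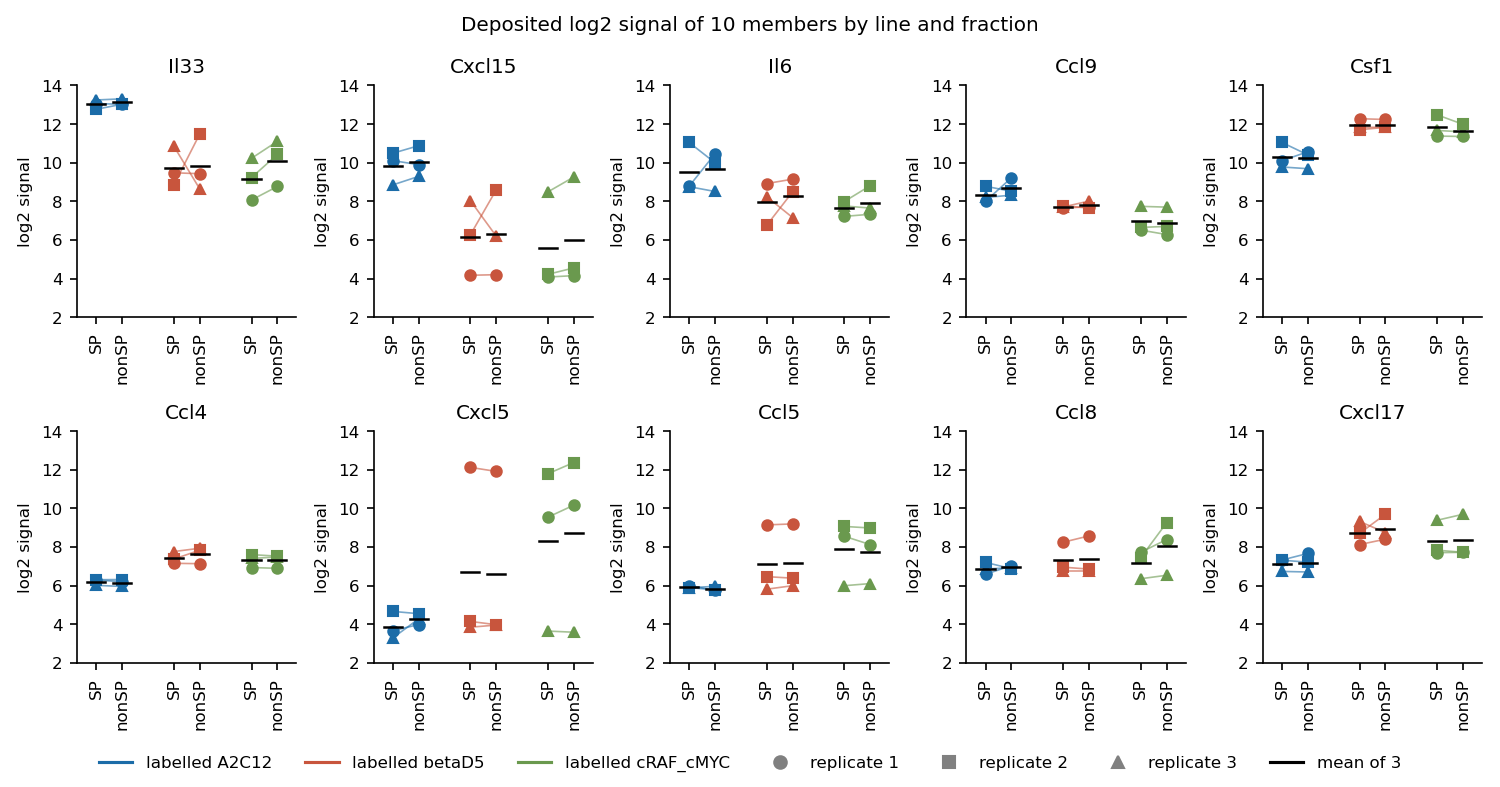
Deposited log2 signal (y axis) of 10 members on each array, by line as labelled and with SP left of nonSP; marker shapes are replicate numbers, lines join same-numbered arrays and black bars are means of 3. Il33 and Ccl4 separate A2C12 from the other lines, while Cxcl5, Cxcl15, Ccl5, Ccl8 and Cxcl17 split the arrays within the labels betaD5 and cRAF_cMYC.

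Against each line singly, A2C12 nonSP arrays differed from betaD5 in 11 members, beside 55.2% of all genes called, and from cRAF_cMYC in 7 members, beside 28.5% of all genes called. Without the 4 arrays that resembled another line the counts were 12 and 8, beside 53.6% and 24.1% of all genes. With centring each of these counts was 6, beside 23.8% of all genes called against betaD5 and 19% against cRAF_cMYC, made up of the same members, Il33, Cxcl15, Il6 and Ccl9 higher and Csf1 and Ccl4 lower in A2C12. These comparisons share the A2C12 arrays. The count of 7 fell to 4 without A2C12 nonSP 1 or without cRAF_cMYC nonSP 2.

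Between betaD5 and cRAF_cMYC no member was called and no gene was (0% of 10916, with 689 genes at an unadjusted p under 0.05). Several members split the arrays of these lines by the labels of the 4 arrays above. Ccl5, also known as RANTES, attracts T cells and monocytes. In A2C12, Ccl5 read 6.0, 5.89 and 5.88 in SP arrays, against 5.75, 5.78 and 5.96 in nonSP arrays. In betaD5, Ccl5 read 9.14, 6.46 and 5.81 in SP arrays, against 9.19, 6.38 and 5.99 in nonSP arrays. In cRAF_cMYC, Ccl5 read 8.55, 9.06 and 5.99 in SP arrays, against 8.12, 8.98 and 6.10 in nonSP arrays. The arrays of betaD5 1, cRAF_cMYC 1 and cRAF_cMYC 2 lay at 8.12 or more, the same arrays that were high in Cxcl5. All others lay at 6.46 or less, so Ccl5 passed the filter (smallest mean kept 6.53) only through those arrays. Ccl8, a monocyte chemoattractant of the Ccl2 group, had the same 6 arrays highest. In A2C12, Ccl8 read 6.58, 7.20 and 6.85 in SP arrays, against 7.03, 6.87 and 6.93 in nonSP arrays. In betaD5, Ccl8 read 8.24, 6.95 and 6.75 in SP arrays, against 8.57, 6.85 and 6.75 in nonSP arrays. In cRAF_cMYC, Ccl8 read 7.72, 7.44 and 6.35 in SP arrays, against 8.38, 9.25 and 6.53 in nonSP arrays. Without the pairs betaD5 1 and cRAF_cMYC 3 and with centring, a setting added after these values had been seen, 6 members differed between betaD5 and cRAF_cMYC nonSP arrays, beside 4.47% of all genes called higher and 12.9% called lower in betaD5. In that fit, which left 2 nonSP arrays in each of these lines, Cxcl15 (2.64, limma adjusted p = 0.0194), Cxcl17 (1.09, adjusted p = 0.0395) and Ccl9 (0.94, adjusted p = 0.0312) were higher in betaD5. Ccl5 (-2.77, adjusted p = 3.69e-06), Ccl8 (-2.42, adjusted p = 2.1e-05) and Ccl27a (-1.04, adjusted p = 0.0255), a skin chemokine that shares probe sets with Ccl27b elsewhere on the array, were lower. As deposited, 5 members were called without these pairs, all of them but Ccl27a, beside 11.2% of all genes. The pairs were left out because of their expression values on these same arrays, which by itself widens the difference between these lines. These calls are therefore a description and no test of that difference. In A2C12, Ccl27a read 6.62, 6.83 and 7.16 in SP arrays, against 6.68, 7.02 and 7.33 in nonSP arrays. In betaD5, Ccl27a read 7.59, 6.21 and 6.74 in SP arrays, against 7.61, 6.54 and 6.19 in nonSP arrays. In cRAF_cMYC, Ccl27a read 6.50, 7.06 and 6.87 in SP arrays, against 6.57, 7.44 and 6.79 in nonSP arrays. The lines overlapped, and the betaD5 1 arrays were the highest in both fractions.

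**Figure D3:**
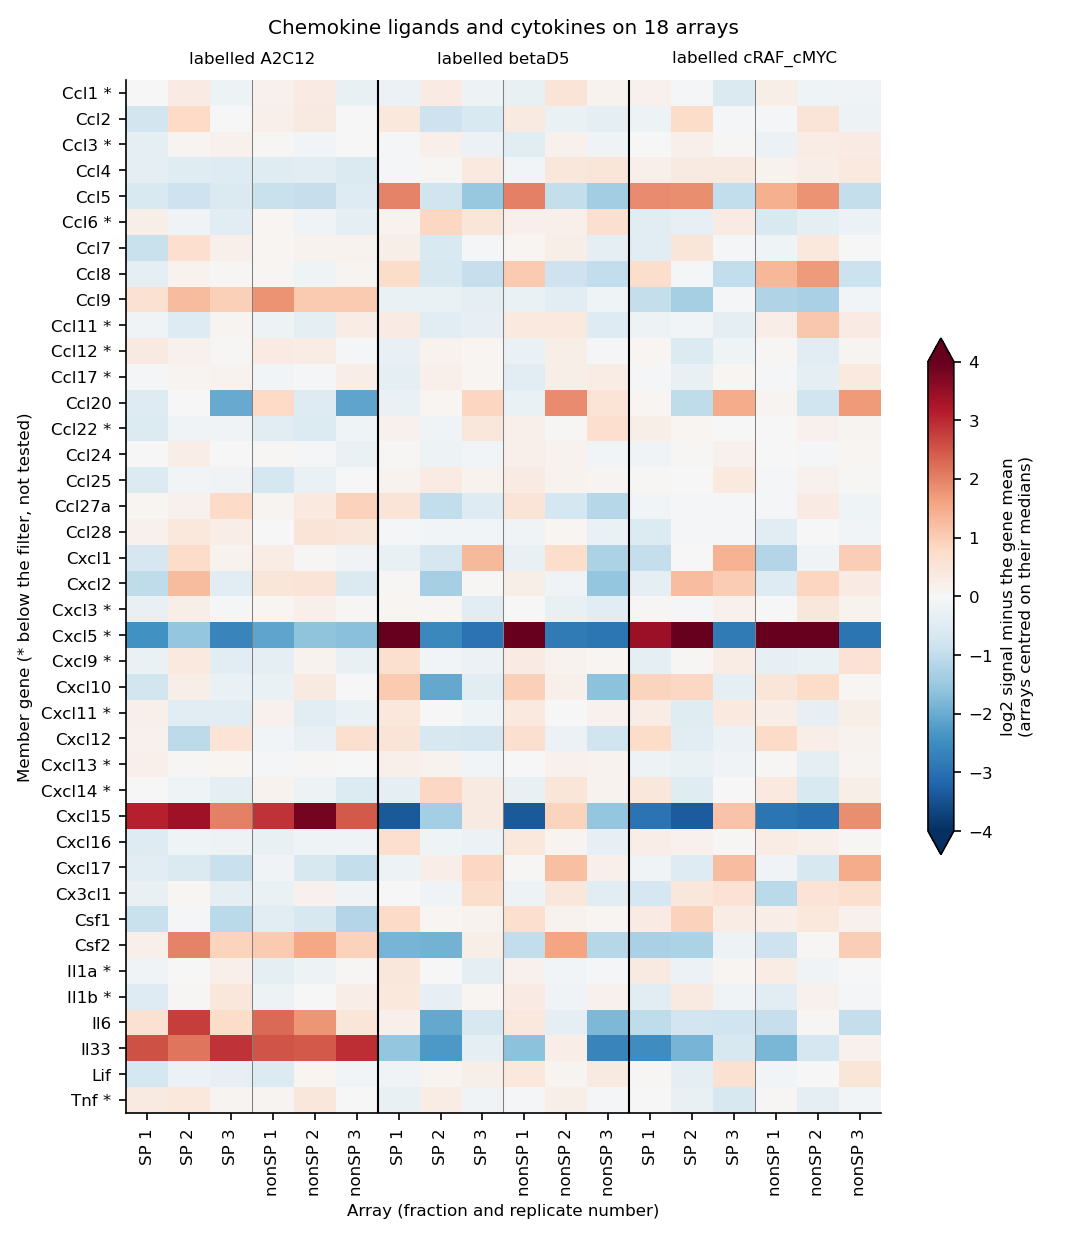
All 40 members (rows, asterisk for the 16 below the filter) on 18 arrays (columns, SP left of nonSP within each labelled line), as log2 signal minus the gene mean after centring arrays on their medians; the colour scale ends at 4 in both directions. Il33, Cxcl15 and Ccl9 are high in all A2C12 arrays, and Cxcl5 and Ccl5 are high in betaD5 1 and cRAF_cMYC 1 and 2.

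The second comparison was that of the fractions, SP minus nonSP, which is the study's main contrast. No member was called in A2C12, betaD5 or cRAF_cMYC or in the mean of the lines, and no gene was (0% of 10916 in each, limma, 6 group means; 1, 14, 18 and 36 genes had an unadjusted p under 0.05). The fit with each pair as a replicate block called none either, with 187, 1298, 899 and 1437 genes at an unadjusted p under 0.05. Of the 24 members, 6 were higher in SP on average in A2C12, 4 in betaD5, 10 in cRAF_cMYC and 6 in the mean of the lines, where the median was -0.12 beside 0.01 over all genes. The differences between lines in the SP contrast were not called for any member either (moderated F test, 0% of genes called, 1 gene at an unadjusted p under 0.05). The lowest block p of a member in that test was 0.0607, for Ccl8 (adjusted p = 0.996).

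The members with the largest mean difference were Csf2, Il33, Ccl8, Ccl20 and Cxcl12, all lower in SP. Csf2, or GM-CSF, is a growth factor of granulocytes and macrophages. In A2C12, Csf2 read 8.31, 10.19 and 8.84 in SP arrays, against 9.18, 9.72 and 8.87 in nonSP arrays. In betaD5, Csf2 read 6.78, 6.84 and 9.03 in SP arrays, against 7.69, 10.39 and 7.74 in nonSP arrays. In cRAF_cMYC, Csf2 read 6.86, 7.40 and 8.28 in SP arrays, against 7.35, 8.74 and 9.49 in nonSP arrays. It was lower in SP in 7 of 9 pairs, with differences between -3.55 in betaD5 2 and 1.28 in betaD5 3. The mean over the lines was -0.74 (95% interval -1.64 to 0.17, limma adjusted p = 1), and in the paired fit with the replicate block the interval was -1.54 to 0.06 (adjusted p = 0.417). With single arrays left out the mean lay between -0.98 without betaD5 SP 3 and -0.44 without betaD5 nonSP 2. Il33 was -0.38 in the mean of the lines (95% interval -1.22 to 0.46, adjusted p = 1), and it was lower in SP in 6 of 9 pairs, among them all 3 cRAF_cMYC pairs (-1.20 to -0.69). Its mean moved by over 1.5 times without any 1 of 6 arrays, between -0.60 without cRAF_cMYC nonSP 1 and -0.11 without betaD5 nonSP 2.

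Cxcl12 is the ligand of Cxcr4 and of the scavenging receptor Ackr3 and is made abundantly by stromal cells. In A2C12, Cxcl12 read 12.73, 11.63 and 12.94 in SP arrays, against 12.45, 12.33 and 13.06 in nonSP arrays. In betaD5, Cxcl12 read 13.59, 12.56 and 12.58 in SP arrays, against 13.76, 13.02 and 12.52 in nonSP arrays. In cRAF_cMYC, Cxcl12 read 13.35, 12.67 and 12.70 in SP arrays, against 13.42, 13.41 and 13.11 in nonSP arrays. It was lower in SP in 7 of 9 pairs, and no line had its fractions apart. The mean difference was -0.26 (95% interval -0.70 to 0.19, limma adjusted p = 1), and the block narrowed the interval to -0.47 to -0.05 (unadjusted p = 0.0213, adjusted p = 0.295). Without the pairs betaD5 1 and cRAF_cMYC 3 the block interval was -0.55 to 0.03 (adjusted p = 0.423) and included 0. With single arrays left out the mean lay between -0.37 without betaD5 SP 1 and -0.13 without A2C12 SP 2. Its other probe sets gave means of -0.30 and, for a dim one, -0.10. Lif was likewise lower in SP in 7 of 9 pairs, with a mean of -0.19 and a block interval of -0.35 to -0.04 (adjusted p = 0.293; 0.388 without those pairs). Neither passed the threshold. Fibroblast and stromal markers also had a median below 0 in this contrast (-0.08 over 12 genes, 3 of them above 0, none called), and Col1a1 had -0.16 in the same paired fit (adjusted p = 0.284). The part of these markers in the Cxcl12 difference was not tested.

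Ccl8 was lower in SP in all 3 cRAF_cMYC pairs, most of all in pair 2, with 7.44 in SP, against 9.25 in nonSP cells. The arrays of pair 2 also differed in a measure of RNA length, given with the betaD5 pairs below. The Ccl8 difference in cRAF_cMYC was -0.89 (95% interval -2.14 to 0.37 without the block and -1.43 to -0.34 with it, limma adjusted p = 0.447 with it). Without cRAF_cMYC 3, and with betaD5 1 left out too, it was -1.24 (block interval -1.83 to -0.65, adjusted p = 0.62). The mean of Ccl8 over the lines was -0.34, with a block interval of -0.65 to -0.03 (limma adjusted p = 0.34). Without the pairs betaD5 1 and cRAF_cMYC 3 it was -0.42 (block interval -0.74 to -0.10, adjusted p = 0.294). It was called in neither fit. With single arrays left out the mean lay between -0.60 without cRAF_cMYC nonSP 3 and -0.14 without cRAF_cMYC nonSP 2. Ccl20 attracts lymphocytes and dendritic cells through Ccr6. In A2C12, Ccl20 read 7.47, 8.10 and 5.81 in SP arrays, against 8.79, 7.54 and 5.74 in nonSP arrays. In betaD5, Ccl20 read 8.24, 8.69 and 9.55 in SP arrays, against 8.27, 10.57 and 9.29 in nonSP arrays. In cRAF_cMYC, Ccl20 read 8.12, 7.55 and 9.83 in SP arrays, against 8.17, 7.77 and 10.10 in nonSP arrays. It differed by more than 1 in 2 pairs, A2C12 1 and betaD5 2, and the mean was -0.32 (95% interval -1.32 to 0.69, limma adjusted p = 1). That mean moved by over 1.5 times without any 1 of 9 arrays, between -0.59 without A2C12 nonSP 3 and -0.08 without A2C12 nonSP 1.

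Ccl2 and Ccl7, which attract monocytes through Ccr2, were high on every array. In A2C12, Ccl2 read 11.94, 13.57 and 12.52 in SP arrays, against 12.88, 13.09 and 12.52 in nonSP arrays. In betaD5, Ccl2 read 13.63, 12.49 and 12.77 in SP arrays, against 13.60, 13.11 and 13.04 in nonSP arrays. In cRAF_cMYC, Ccl2 read 12.50, 13.96 and 12.96 in SP arrays, against 12.68, 13.76 and 12.90 in nonSP arrays. Ccl2 varied about as much within a line as between lines, and neither contrast called it (-0.14 for SP, 95% interval -0.65 to 0.37; -0.35 for A2C12 among nonSP arrays, limma adjusted p = 0.423). Ccl7, its neighbour on chromosome 11, lay between 11.01 and 12.95. Cx3cl1, or fractalkine, is a membrane-bound ligand of Cx3cr1. In A2C12, Cx3cl1 read 7.12, 7.62 and 6.90 in SP arrays, against 7.18, 7.68 and 7.14 in nonSP arrays. In betaD5, Cx3cl1 read 7.95, 7.93 and 8.84 in SP arrays, against 7.78, 8.58 and 7.75 in nonSP arrays. In cRAF_cMYC, Cx3cl1 read 6.80, 8.46 and 8.37 in SP arrays, against 6.45, 8.57 and 8.49 in nonSP arrays. Its mean SP difference was 0.04 (95% interval -0.58 to 0.66), with 3 of 9 pairs higher in SP, and the sign turned when single arrays were left out. Csf1 differed between fractions by 0.08 (95% interval -0.33 to 0.50) and Il6 by -0.23 (-1.07 to 0.61), both with a limma adjusted p = 1. With single arrays left out, Il6 lay between -0.48 and -0.03 and Ccl2 between -0.29 and -0.02, and Csf1 turned sign without 3 of the arrays.

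Single pairs held much larger differences than these means, and they went opposite ways within a line. In A2C12, 9 of 24 members were lower in SP by more than 0.5 in pair 1 and none was higher, 6 were higher and 1 lower in pair 2, and none passed 0.5 in pair 3. In betaD5, 12 members were lower in pair 2 and 10 were higher in pair 3, and in pair 1 there were 2, both lower. In cRAF_cMYC, 2 to 5 members passed 0.5 in a pair. Over all tested genes the share past 0.5 was 4.38%, 3.95% and 0.202% in A2C12 pairs 1, 2 and 3, 6.4%, 13.9% and 8.92% in betaD5 and 1.56%, 5.32% and 5.25% in cRAF_cMYC.

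Of the 24 members, 8 were lower in SP in A2C12 1 and betaD5 2 and higher in SP in A2C12 2 and betaD5 3, beside 3.87% of all tested genes. This order of signs was read from the members' own values, so the count is a description and no test. The 8 were Il6, Cxcl1, Cxcl2, Ccl20, Csf2, Ccl7, Cxcl16 and Cxcl17. In A2C12, Il6 differed by -1.68 in pair 1 and 1.05 in pair 2, and in betaD5 by -1.73 in pair 2 and 1.09 in pair 3. Cxcl1 differed by -0.99 and 0.73 in those A2C12 pairs and by -1.43 and 2.51 in those betaD5 pairs. For Cxcl2 the values were -1.52 and 0.80 in A2C12 and -1.27 and 1.52 in betaD5. Ccl20 gave -1.32 and 0.57 in A2C12 and -1.88 and 0.26 in betaD5. Csf2 gave -0.87 and 0.47 in A2C12 and -3.55 and 1.28 in betaD5. Other members did not have this order, among them Ccl2 (-0.94, 0.48, -0.62 and -0.27 in the same pairs) and Cxcl10 (-0.51, -0.10, -2.33 and 1.13). Cxcl15 gave 0.21 and -0.39 in A2C12 and -2.33 and 1.84 in betaD5. The promoters of Il6, Cxcl1, Cxcl2 and Ccl20 were printed because of this order, so their matches to GGGNNTTTC cannot be set beside it as a finding. Of the 6 tested members with a match, Ccl9 and Csf1 did not have the order, and Csf2 had it with no match in its window.

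The levels behind the betaD5 pairs were as follows. In A2C12, Cxcl1 read 10.71, 12.22 and 11.37 in SP arrays, against 11.69, 11.50 and 11.10 in nonSP arrays. In betaD5, Cxcl1 read 11.59, 11.35 and 13.37 in SP arrays, against 11.62, 12.78 and 10.86 in nonSP arrays. In cRAF_cMYC, Cxcl1 read 10.46, 11.96 and 13.13 in SP arrays, against 10.28, 11.81 and 12.76 in nonSP arrays. Among the betaD5 arrays numbered 2 and 3, SP 3 and nonSP 2 were high together and SP 2 and nonSP 3 low together, and the same held for Il33, Cxcl15, Csf2 and Cxcl10. The numbers of betaD5 2 and 3 therefore carry limited certainty as pairs. Over genes, the deviations of their arrays from the group means correlated at r = 0.618 and 0.6. For A2C12 1 and 2, the other pairs in the order of signs above, r was lower still (0.426 and 0.587). The Gapdh 3′ minus 5′ signal, a measure of RNA length, was 0.76 and 0.97 in the SP arrays of betaD5 2 and 3, against 0.10 and 0.05 in their nonSP arrays. It was higher in SP in both pairs (by 0.66 and 0.93). The part of RNA length in the member differences of single pairs was not tested. In cRAF_cMYC 2, the pair in which Ccl8 differed most, the Gapdh signal was 0 in the SP array, against 0.56 in the nonSP array. With the 3′ to 5′ measure as a covariate beside the replicate block, 34 genes and 0 members were called in betaD5.

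**Figure D4:**
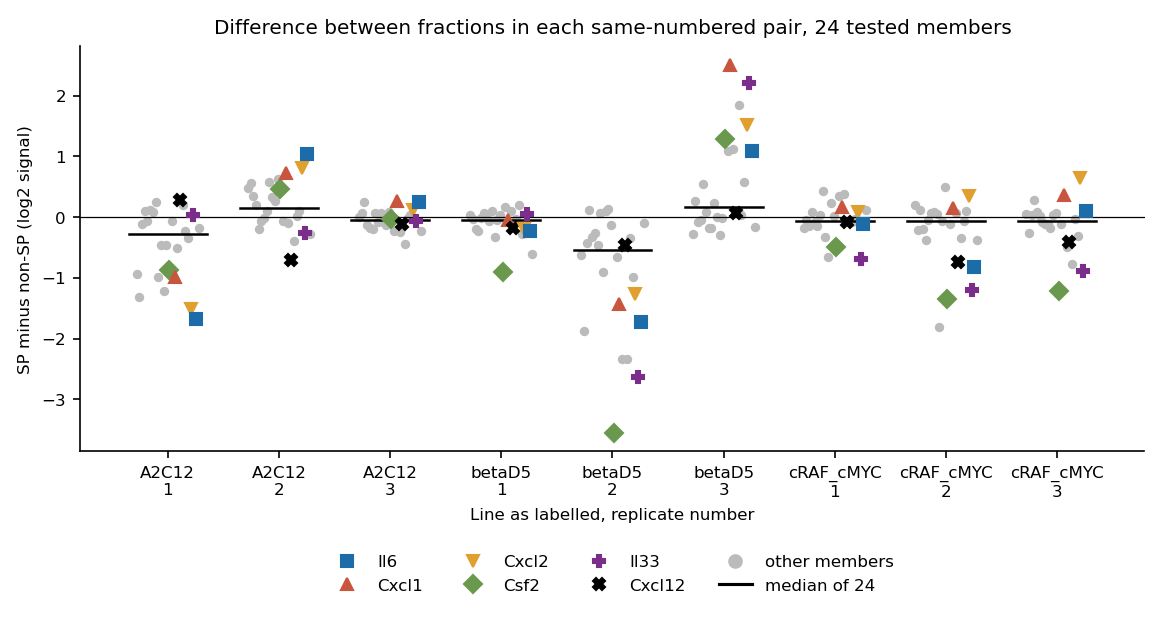
SP minus nonSP (y axis, log2 signal) in each same-numbered pair (x axis) for the 24 tested members; 6 members have their own markers and black bars are medians of the 24. Il6, Cxcl1 and Cxcl2 lie below 0 in A2C12 1 and betaD5 2 and above 0 in A2C12 2 and betaD5 3.

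The remaining members were low. The 15 members below the filter other than Cxcl5 lay between 2.69 (Cxcl3) and 7.04 (Cxcl13) on every array. Tnf lay between 5.77 and 7.0, Il1b between 4.77 and 6.23 and Il1a between 3.60 and 4.91, so the cytokines that classically induce these ligands were among the low members. Cxcl9 and Cxcl11, which like Cxcl10 are interferon-induced ligands of Cxcr3, were below the filter, while Cxcl10 lay between 6.43 (betaD5 SP 2) and 9.44 (betaD5 SP 1). On chromosome 11, Ccl3, Ccl6, Ccl11 and Ccl12 were below the filter next to Ccl2, Ccl7, Ccl9 and Ccl4. Between fractions, the largest difference of an untested member in a pair was -1.19, for Ccl11 in cRAF_cMYC 2, with 5.67 in SP, against 6.86 in nonSP cells.

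Genes that sense or regulate these ligands were counted as lists. Of 22 chemokine receptors, 20 were on the arrays and 5 were above the filter, and Cxcr2, Cxcr4 and Ccr1 were not. Ackr3, the scavenging receptor for Cxcl12, lay between 10.81 and 11.36 in A2C12, against 6.52 to 8.48 in betaD5 and 5.40 to 8.42 in cRAF_cMYC. Its difference among nonSP arrays was 4.27 with centring (limma adjusted p = 5.88e-05), and Ackr4 was lower (-0.48, adjusted p = 0.033). Of 10 tested cytokine receptors, 4 were lower in A2C12 as deposited (Tnfrsf1a, Il6ra, Il6st and Tnfrsf1b), beside 49.2% of all genes called lower, and none passed with centring, beside 16.4%. Of 17 tested NF-kappaB factors and feedback genes, 5 were lower as deposited, against that same 49.2%. With centring Nfkbib was higher (1.29, limma adjusted p = 0.00684), beside 12% of all genes. Map3k8 (-1.29, adjusted p = 0.00571) and Rela (-0.44, adjusted p = 0.0179) were lower, beside 16.4%. Of 10 tested regulators of cytokine mRNA decay, 7 were lower as deposited, beside the same 49.2%, and 3 with centring, beside 16.4%, namely Hnrnpd (-1.05, adjusted p = 5.34e-05), Elavl1 (-0.83, adjusted p = 0.000404) and Khsrp (-0.39, adjusted p = 0.0455). The centred medians of these 4 lists were 0.07, 0.03, 0.31 and -0.24, beside -0.04 over all genes. In the mean SP contrast none of these lists had a called gene, and their medians were -0.02, -0.03, 0.05 and 0.07, beside 0.01. The genes with the smallest block p values were Dusp1, a phosphatase that restrains MAP kinases, and Traf2, an adaptor of Tnf receptors. Their differences were 0.32 and 0.23 (limma adjusted p = 0.22 for each), both higher in SP on average.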

How the data were processed

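Gene expression was measured on 18 mouse Affymetrix 3′ arrays, 3 for each of 6 groups of line and fraction, from 200 ng of total RNA per the labels. The values are the log2 signals the authors deposited for 45101 probe sets, made with Affymetrix Expression Console per the submitters' processing notes; its version, summary method and normalization are not given in the sources used here. They lay between 2.28 and 15.28. Precision is limited by the number of arrays.

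The 64 control probe sets and 932 probe sets with several genes were left out, and 9160 had no symbol. The other 34945 had 1 gene symbol, of which 34741 were matched to current RefSeq names. Each of 18193 genes was read from its probe set with the highest mean, genes in the lowest 40% by mean were dropped (smallest mean kept 6.53), and 10916 remained for testing. The fits used limma 3.58.1 in R 4.3.3 (6 group means, 12 residual degrees of freedom, eBayes with a trend) with two-sided tests; calls required an adjusted p (Benjamini-Hochberg, over all tested genes) under 0.05. Intervals are 95%. The fits were tested on simulated data.

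The numbers in the labels were taken to pair SP and nonSP arrays, and a fit with the replicate block (6 residual degrees of freedom) is given beside the SP results. Same-numbered arrays deviated together from their group means (r over genes 0.426 to 0.952 in all 9 pairs). This r was not computed for differently numbered arrays. In betaD5 and cRAF_cMYC, a pair that resembled another line by itself makes deviations agree. It is therefore no test of the pairing. The lowest r was that of A2C12 1 (0.426), followed by A2C12 2 (0.587), betaD5 3 (0.6) and betaD5 2 (0.618). For these the pairing stays uncertain. Over the signals themselves, the betaD5 2 arrays had r = 0.98 with each other. With a differently numbered betaD5 array it reached 0.983 for SP 2 and 0.987 for nonSP 2. For betaD5 nonSP 3 it was 0.987, against 0.986 with SP 3. Every other array had its highest r within its line with its same-numbered array. Results were recomputed with each array centred on its median, with quantile normalization, with the filter off or raised to 60%, with the mean of all probe sets, with no trend, without each array or the pairs betaD5 1 and cRAF_cMYC 3, with the block alone or with a 3′ to 5′ covariate, and with lines compared in SP arrays or pair means.

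The members and the 8 gene lists were chosen with earlier results of these data known. Values on every array are given for members called in a comparison of lines or fractions, the 5 with the largest mean SP difference, and Il6, Cxcl12, Ccl2, Csf1 and Cx3cl1; Cxcl1, Cxcl5 and Ccl5 were added after their values were seen.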

Additional observations from a re-analysis of the deposited data

How the results depend on the processing

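In the comparisons of fractions no member was called under any alternative. The paired fit with the replicate block called 0 genes in each line and in the mean of the lines; without the pairs betaD5 1 and cRAF_cMYC 3 it called 15 genes in betaD5, and with the 3′ to 5′ covariate 34 in betaD5 and 3 in the mean. The mean SP difference of Cx3cl1 was -0.0052 with that covariate and lay between -0.1898 and 0.2204 with each array left out in turn; that of Csf1 lay between -0.0405 and 0.1713. For A2C12 minus betaD5, quantile normalization called 3147 genes and 7 members, centring 2596 and 6, no filter 10568 and 21, and the filter at 60% 3 members. For A2C12 minus cRAF_cMYC, centring called 2073 genes, the filter at 60% called 2 members, and leaving out 1 array gave 1562 genes (without cRAF_cMYC nonSP 2) to 4986 (without cRAF_cMYC nonSP 1) and 4 to 9 members. It gave 1708, 1979 and 1997 genes without A2C12 nonSP 3, cRAF_cMYC nonSP 3 and A2C12 nonSP 2. For A2C12 minus the mean of the other lines, quantile normalization called 3544 genes (46.3% of them higher), centring 3095 (42.2% higher, against 5.67% as deposited) and no filter 9376; members numbered 18 with no filter and 4 with the filter at 60%. Some of the counts differ by construction, since filters change the genes tested. Between betaD5 and cRAF_cMYC, leaving out the pairs betaD5 1 and cRAF_cMYC 3 called 1222 genes and 5 members, and with centring as well 1895 and 6. Those pairs were picked from the same values, so these counts are no test. The Ccl28 difference was 0.4758 with quantile normalization, 0.4858 with centring and -0.1852 to 0.0855 with each array left out. Of the other values for single members, 530 kept their direction and their side of the threshold and 18 lost the call, 8 of these by centring or quantile normalization of Lif, Cxcl16, Cxcl17 and Ccl24. The cause of these changes was not tested. With 3 arrays a group, SP differences of the sizes seen for most members were smaller than their 95% intervals, which is not evidence of no difference.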

Other observations

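Probe sets that list several genes were left out of the 40 members. The probe set of the Ccl21 genes, whose products guide T cells and dendritic cells into lymph nodes, lay between 6.15 and 6.80 in A2C12, against 5.93 to 7.12 in the other lines. That of Ccl19, which shares the receptor Ccr7 with them, lay between 5.50 and 5.96 in A2C12, against 5.49 to 6.82 in the other lines. The 2 shared probe sets of Ccl27a and Ccl27b lay between 7.82 and 8.04 and between 7.42 and 7.74 in A2C12, against 7.74 to 8.45 and 7.10 to 8.11 in the other lines.

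The matrix gene Dcn, a fibroblast marker, was lower in A2C12 nonSP arrays than in the other lines (-2.99 with centring, limma adjusted p = 0.00175), as were Col1a2 (-1.43, adjusted p = 9.15e-05) and Pdgfrb (-0.88, adjusted p = 0.0314), while Fn1 was higher (0.68, adjusted p = 0.00122). Of 12 tested fibroblast and stromal markers these were the 4 called with centring, beside 12% of all genes called higher and 16.4% called lower. Of 5 tested epithelial markers, Krt8 was called higher (0.66, limma adjusted p = 0.0477), beside the same 12%. Their part in the line differences of the ligands was not tested.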
